A study of Gallus gallus with 24 samples.

Results

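Myoglobin and the adult hemoglobin chains are the oxygen-binding globins of muscle and of blood. Their genes were followed by symbol in a table of 20780 chicken genes, where 4 genes carried the names: MB (ENSGALG00000012541), HBA1 (ENSGALG00000043234), HBBA (ENSGALG00000047152) and HBAD (ENSGALG00000031597). Each symbol stood on a single identifier, and all 4 genes passed the filter on low values. MB encodes myoglobin, a single-chain protein made inside muscle fibres, which holds oxygen and speeds its passage to mitochondria. Fibres that live on oxidative metabolism carry far more of it than fast glycolytic fibres, which is the main reason some muscles look red. HBA1 encodes the major adult alpha chain of hemoglobin (alpha A), HBAD the minor adult alpha chain (alpha D), and HBBA the adult beta chain that pairs with both. Hemoglobin genes are expressed in the red cell lineage, and the red blood cells of birds keep their nucleus and contain RNA, so hemoglobin RNA in a muscle sample comes chiefly with the blood it holds.

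RNA was sequenced from the pectoralis major (PEM), the fast glycolytic breast muscle, and the soleus (SOL), a lower-leg muscle of mixed oxidative and glycolytic fibres, of Guangyuan Grey hens. The study began with 270 hens at 150 days of age, divided at random among a normal control diet (CONT), a high-fat diet given for 15 days (SHFD) and the high-fat diet given for 60 days (LHFD). From each diet 9 birds were killed at 210 days of age after 12 h without feed, and both muscles were dissected from the same birds. The 6 combinations of muscle and diet held 4 libraries each, described in the labels as biological replicates, and the labels do not tie a library to a bird. Libraries are named by diet, muscle and number, as in CONT_PEM 2. Because whole muscle blocks were sequenced, fewer cells of a type and less RNA per cell cannot be told apart in any of the values that follow.

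Values are FPKM, which divide the fragments of a gene by its transcript length and by the mapped fragments of the library and so set genes of different length on a common scale. Depth is unknown, and the values of a library summed to between 474667 and 525731. The mitochondrially encoded genes took 10.4% to 17.3% of that sum in PEM and 20.6% to 27% in SOL. CONT_PEM 2 and LHFD_PEM 1 stood apart from the other PEM libraries, with mean log2 levels of the leukocyte genes of 3.41 and 2.61 against 1.34 to 1.70 in the other 10. The labelled muscles differed in their slow fibre genes, whose mean log2 level lay between 8.41 and 10.41 in the 12 SOL libraries and between 1.83 and 3.34 in the 12 PEM libraries. The mean log2 level of the fast fibre genes overlapped, at 9.785 to 10.18 in PEM and 7.346 to 10.41 in SOL. Their summed FPKM did not overlap, at 60260 to 75500 in PEM and 8046 to 52470 in SOL. The lowest fast fibre values of SOL were in SHFD_SOL, which ranged widely, with sums of 8046 to 45350. Fold changes below are log2 differences of FPKM + 1, a scale that understates the change of low genes, and "called" means that the adjusted p was below 0.05.

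Myoglobin separated the muscles more widely than any hemoglobin gene did. MB stood at 5932, 7484, 6618 and 6894 FPKM in CONT_SOL, at 4909, 5952, 8068 and 5620 FPKM in SHFD_SOL, and at 5418, 5718, 5429 and 6265 FPKM in LHFD_SOL. In PEM it stood at 43.9, 22.8, 34.1 and 55.6 FPKM in CONT, at 154, 217, 83.4 and 87.2 FPKM in SHFD, and at 142, 38.0, 20.4 and 38.8 FPKM in LHFD. Every SOL library thus lay above every PEM library, and within PEM the 4 SHFD libraries lay above all 4 CONT libraries, whereas LHFD overlapped CONT through its libraries 2 and 4 and SHFD through its library 1. By FPKM, MB ranked between 8th and 20th of all genes in the SOL libraries, and between 185th and 2158th in the PEM libraries. The gene took 0.934% to 1.54% of the summed FPKM of a SOL library and 0.00430% to 0.0436% of that of a PEM library.

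**Figure D1:**
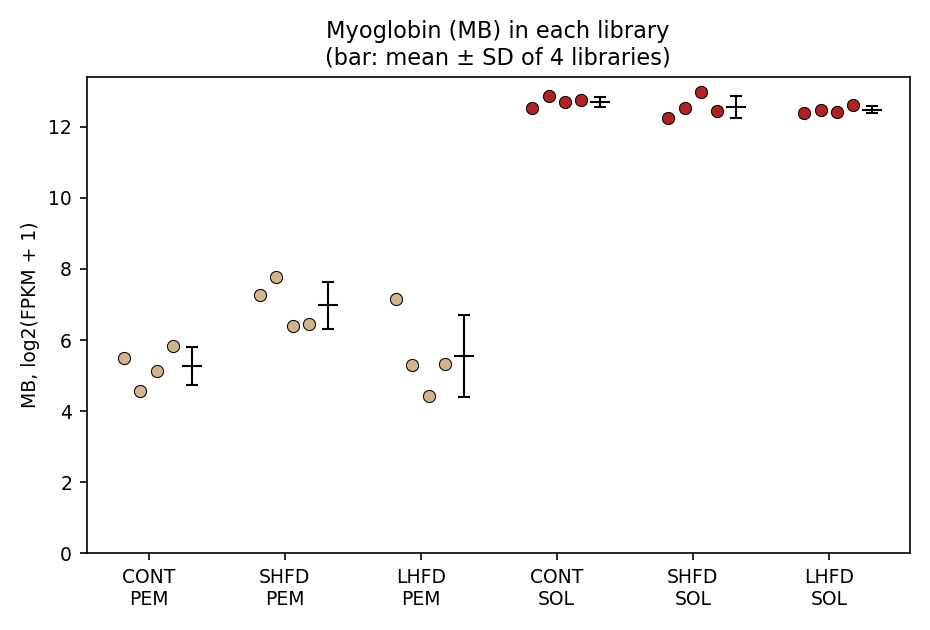
Myoglobin in each of the 24 libraries, as log2(FPKM + 1) on the vertical axis, with the 6 muscle and diet groups along the horizontal axis. Points are libraries and the bars beside them give the mean ± SD of 4; the SOL points (red) form a narrow band above 12, and the PEM points (tan) spread from below 5 to almost 8.

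The first question is how far the muscles differ within a diet. Under CONT, MB averaged 6732 ± 644 FPKM in SOL and 39.1 ± 13.98 FPKM in PEM (SD, n = 4 each). The log2 fold change was 7.46 with a standard error of 0.39, and limma's adjusted p was 2.6e-12. Under SHFD the means were 6137 ± 1359 and 135 ± 63.4 FPKM, a log2 fold change of 5.58 (limma adjusted p = 3.17e-10). Under LHFD they were 5708 ± 397 and 59.8 ± 55.5 FPKM, a log2 fold change of 6.93 (limma adjusted p = 1.1e-11). MB was the 1 member of 4 called under CONT without a replicate block, where 30.7% of all genes tested were called higher in SOL and 25.3% did not overlap in that direction. Its lowest SOL to highest PEM distance was kept in all 3 diets, and no left-out library or other setting took the call away.

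The second question is whether high-fat feeding moved MB within PEM. With the 15-day high-fat diet (SHFD) MB was higher than in CONT, with a log2 fold change of 1.72, a standard error of 0.39 and a 95% interval of 0.90 to 2.54. On the linear scale this was a 3.30-fold difference, and limma's adjusted p was 0.0319. MB was the 1 member of 4 called here and the 1 member whose groups did not overlap. For comparison, 0.539% of all genes tested were called higher in SHFD_PEM and 2.74% did not overlap in that direction. The call rested on the spread shared across all 24 libraries. It was lost when the fit held CONT_PEM and SHFD_PEM alone (adjusted p = 0.207), the PEM libraries alone (0.240), or all genes without the filter on low values (0.0771), and in 5 of the 8 fits that left out 1 library of these groups (adjusted p up to 0.0919). The log2 fold change stayed between 1.46 and 1.92 in those 8 fits.

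With the 60-day high-fat diet (LHFD), in birds killed at the same age, MB in PEM did not differ from CONT beyond the spread between libraries. The log2 fold change was 0.29, with a 95% interval of −0.53 to 1.11 and a limma adjusted p of 0.743. None of the 4 members was called here, and none had an unadjusted limma p under 0.05, while 6.94% of all genes tested were called and 11.8% did not overlap between these groups. That value depended on LHFD_PEM 1, which at 142 FPKM stood far from the other 3 libraries of its group: without it the log2 fold change was −0.25, and without it and CONT_PEM 2 it was −0.47 (limma adjusted p = 0.383). LHFD against SHFD gave −1.43 with a 95% interval of −2.25 to −0.61 and a limma adjusted p of 0.159, against a background of 0.201% of genes called and 5.45% without overlap. Without LHFD_PEM 1 the same comparison gave −1.97 and an adjusted p of 0.0110, so that this library decided on which side of the threshold the value fell. The mean log2 level of the slow fibre genes was also highest in LHFD_PEM 1 among the 12 PEM libraries, at 3.34. Over the PEM libraries as a whole it ran from 1.83 to 3.004 in CONT and from 2.17 to 2.71 in SHFD. With that level as a covariate in a fit of the PEM libraries alone, MB gave 1.55 in SHFD against CONT (limma adjusted p = 0.275) and −0.036 in LHFD against CONT. The fit of the PEM libraries alone had already lost the SHFD call without the covariate.

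In SOL, limma called MB in none of the diet comparisons, and its unadjusted p was 0.556 or more. The log2 fold changes were −0.15 for SHFD against CONT, −0.24 for LHFD against CONT and −0.08 for LHFD against SHFD, and all 3 pairs of groups overlapped, where 9.81%, 10.9% and 6.85% of all genes tested did not. Their 95% intervals ran from −0.97 to 0.67, from −1.05 to 0.58 and from −0.90 to 0.74. These intervals rest on the spread shared across all 24 libraries, which for MB was wider in PEM than in SOL. The SD of its log2 values was 0.14, 0.30 and 0.10 in CONT_SOL, SHFD_SOL and LHFD_SOL, against 0.53, 0.66 and 1.15 for these diets in PEM. The intervals and p-values thus do not measure the spread within SOL alone. In the other settings limma's adjusted p for MB stayed at 0.39 or more. No hemoglobin gene was called there either, with unadjusted p-values of 0.409 or more, and the share of all genes called was 0.557%, 0.521% and 0.886% in the 3 comparisons. The difference between muscles in the effect of 15 days of feeding was −1.88 for MB, with a 95% interval of −3.03 to −0.72, an unadjusted limma p of 0.00285 and an adjusted p of 0.512. It did not pass the threshold, as almost no gene did: 0.00914% of all genes were called. For 60 days the difference was −0.53 (limma adjusted p = 0.999), and limma called 0 genes of 10944, with 620 at an unadjusted p under 0.05.

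Ordered by mean, the groups ran from CONT_SOL through SHFD_SOL and LHFD_SOL to SHFD_PEM, LHFD_PEM and CONT_PEM for myoglobin. Of the 5 neighbouring pairs in that order, LHFD_SOL and SHFD_PEM were called (log2 fold change 5.50, limma adjusted p = 4.74e-10). SHFD_PEM and LHFD_PEM differed by 1.43 with an unadjusted p of 0.00151, which did not pass after adjustment over all genes (0.159), and their values overlapped. In the other 3 pairs the unadjusted p was 0.469 or more.

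The hemoglobin genes were expressed at 4.75 to 141 FPKM across both muscles, far below MB in SOL. In CONT_PEM, HBA1 and HBBA averaged 46.1 and 41.3 FPKM, near the 39.1 of MB, and HBAD 12.6. Under SHFD and LHFD all 3 averaged below MB in PEM. HBA1, the major alpha chain, stood at 69.4, 49.9, 49.7 and 141 FPKM in CONT_SOL, at 101, 67.1, 77.9 and 41.5 in SHFD_SOL, and at 52.7, 49.1, 72.8 and 62.2 in LHFD_SOL. In PEM it stood at 49.2, 28.6, 28.3 and 78.3 FPKM in CONT, at 31.0, 44.3, 50.1 and 23.5 in SHFD, and at 30.5, 21.8, 19.1 and 32.1 in LHFD. Library 4 was the highest of both CONT groups and the lowest of both SHFD groups, and the muscles overlapped under CONT and SHFD but not under LHFD.

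HBBA, the beta chain, followed closely. It stood at 61.5, 46.1, 44.9 and 133 FPKM in CONT_SOL, at 79.2, 61.2, 68.3 and 33.1 in SHFD_SOL, and at 53.6, 40.1, 60.4 and 56.2 in LHFD_SOL. In PEM its values were 44.0, 26.4, 24.8 and 70.0 FPKM in CONT, 33.6, 44.8, 45.5 and 20.5 in SHFD, and 27.9, 19.3, 18.2 and 32.8 in LHFD. The same libraries were highest and lowest as for HBA1 in the CONT and SHFD groups, and again LHFD was the diet in which the muscles did not overlap.

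HBAD, the minor alpha chain, was lower. It stood at 16.8, 11.5, 10.9 and 46.1 FPKM in CONT_SOL, at 25.3, 19.9, 20.7 and 7.63 in SHFD_SOL, and at 13.7, 10.6, 17.0 and 16.1 in LHFD_SOL. Its PEM values were 12.2, 7.99, 6.96 and 23.4 FPKM in CONT, 13.4, 14.7, 13.9 and 5.17 in SHFD, and 7.28, 4.75, 5.74 and 7.49 in LHFD. LHFD_PEM had the lowest mean, and CONT_SOL had the widest range of the 6 groups. Together the 3 hemoglobin genes took 0.00906% to 0.0635% of a library's summed FPKM.

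**Figure D2:**
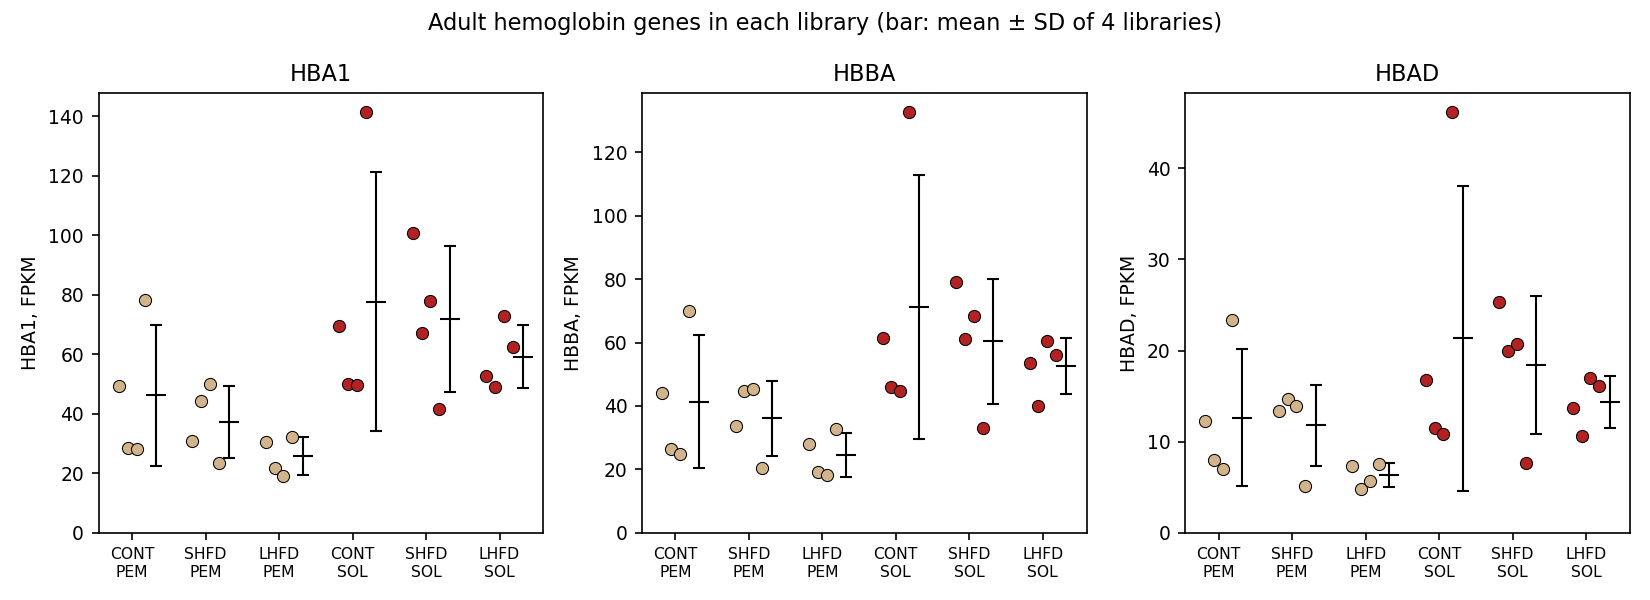
FPKM of HBA1, HBBA and HBAD (vertical axes, from 0) in the 6 groups, PEM in tan and SOL in red, with points for libraries and bars for the mean ± SD of 4. In each panel CONT_SOL reaches highest through 1 library, 141 FPKM for HBA1, and LHFD_PEM lies lowest.

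Between the muscles, all 3 hemoglobin genes had the higher mean in SOL under every diet. Under LHFD the 3 genes were called and did not overlap, as MB did: HBA1 averaged 59.2 ± 10.7 FPKM in SOL and 25.9 ± 6.41 in PEM (SD, n = 4 each), HBBA 52.6 ± 8.77 and 24.6 ± 7.01, and HBAD 14.3 ± 2.84 and 6.32 ± 1.304. The log2 fold changes were 1.18, 1.09 and 1.07, with limma adjusted p-values of 0.00875, 0.0169 and 0.0430. All 4 members were therefore called in this comparison, where 28.9% of all genes tested were called higher in SOL and 27% did not overlap in that direction. HBAD passed narrowly. Its adjusted p was 0.0851 after quantile normalization and 0.0840 without the filter on low values, and in 7 of the 8 fits without 1 library it was above 0.05. HBBA passed in 7 of the 8 fits without 1 library, with limma adjusted p-values up to 0.0534.

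Under SHFD, HBA1 averaged 71.8 ± 24.5 FPKM in SOL and 37.2 ± 12.2 in PEM, a log2 fold change of 0.92 (limma adjusted p = 0.0304). HBBA gave 0.72 and HBAD 0.58, with adjusted p-values of 0.0929 and 0.251. MB and HBA1 were the 2 members called, beside 26.5% of all genes called higher, and MB was the 1 that did not overlap, beside 24.1%. The call of HBA1 was lost without SHFD_SOL 1, SHFD_SOL 3, SHFD_PEM 1 or SHFD_PEM 4, with adjusted p-values up to 0.108, and without the filter on low values (0.0606). These tests ignore that both muscles came from the same birds. With a block for each diet and number, HBA1, HBBA and HBAD were all called (limma adjusted p = 0.00163, 0.00224 and 0.00234). That fit called 2936 genes higher in SOL under SHFD, beside 2901 in the main fit. Which libraries share a bird is not given in the labels.

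Under CONT limma called no hemoglobin gene, and HBA1 and HBBA had unadjusted p-values of 0.0472 and 0.0468. HBA1 averaged 77.6 ± 43.5 and 46.1 ± 23.6 FPKM in SOL and PEM, HBBA 71.3 ± 41.7 and 41.3 ± 21.0, and HBAD 21.3 ± 16.8 and 12.6 ± 7.52. The log2 fold changes were 0.73, 0.75 and 0.61, with limma adjusted p-values of 0.0847, 0.0842 and 0.231 and 95% intervals reaching up to 1.44, 1.49 and 1.47. The same-numbered libraries of the muscles deviated together in all 4 CONT pairs (r of 0.163 to 0.295 over the genes tested), and both muscles came from the same birds. With the number as a block in a fit of the CONT libraries, chosen after seeing the data, all 3 genes were called at the same fold changes, with limma adjusted p-values of 0.00263, 0.0029 and 0.00843. With a block for each diet and number over all libraries these were 0.00713, 0.00175 and 0.00166. That fit also paired the SHFD and LHFD libraries, where r exceeded 0.1 in 3 of 4 and 0 of 4 pairs. Under CONT the blocked fits called 3125 and 3374 genes higher in SOL, beside 3365 of 10944 in the main fit. Pairing was read from these same libraries, so the smaller p-values are not independent evidence. HBA1 and HBBA also passed when libraries were scaled to equal sums over nuclear genes (0.89 and 0.91, adjusted p = 0.0334 and 0.0342).

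A comparison over the mean of the 3 diets, chosen after these values were seen, used all 12 libraries of each muscle. It gave log2 fold changes of 0.94 for HBA1, 0.86 for HBBA and 0.75 for HBAD, with limma adjusted p-values of 0.000253, 0.00086 and 0.00843. MB gave 6.66 (adjusted p = 2.23e-16), so all 4 members were called higher in SOL, as 40.9% of all genes tested were. These calls held in each fit that left out 1 library.

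The scale on which libraries are compared matters for differences of this size. The median log2 difference of all genes between SOL and PEM under CONT was 0.12 as deposited, −0.05 after quantile normalization and 0.25 after scaling to equal sums over nuclear genes. The share of called genes that were higher in SOL was 60.6%, 44.5% and 73.9% under CONT and 66.0%, 44.6% and 76.6% under LHFD. The 3 hemoglobin genes kept a positive difference in all 3 diets under both scalings, at 0.46 or more, above the median of all genes in each case.

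Within PEM, limma called no hemoglobin gene in a diet comparison, and the smallest unadjusted p was 0.0507, of HBA1 in LHFD against CONT. The share of all genes called was 6.94% in LHFD against CONT and 0.201% in LHFD against SHFD. For SHFD against CONT it was 0.539% higher and 0.53% lower. SHFD against CONT gave log2 fold changes of −0.23 for HBA1, −0.13 for HBBA and −0.04 for HBAD, in the comparison in which MB was called higher. LHFD against CONT gave −0.71, −0.64 and −0.77, with limma adjusted p-values of 0.229, 0.304 and 0.291 and 95% intervals whose upper ends lay at 0.00, 0.10 and 0.09. LHFD against SHFD gave −0.48, −0.51 and −0.73, with adjusted p-values of 0.618, 0.609 and 0.527. Within SOL the 9 values lay between −0.31 and −0.04, and HBAD in SHFD against CONT was 0.045 after quantile normalization. Neither high-fat effect was found to differ between the muscles for any hemoglobin gene, with adjusted p-values of 0.980 to 0.999 and 95% intervals that reached as far as 1.68 for HBAD. Almost no gene was called for these differences, 0.00914% of all genes for the SHFD effect and 0% for the LHFD effect.

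The order of the group means was the same for HBA1, HBBA and HBAD, falling from CONT_SOL through SHFD_SOL, LHFD_SOL, CONT_PEM and SHFD_PEM to LHFD_PEM. All neighbouring pairs in it overlapped, and none was called by limma, with unadjusted p-values of 0.0934 or more.

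**Figure D3:**
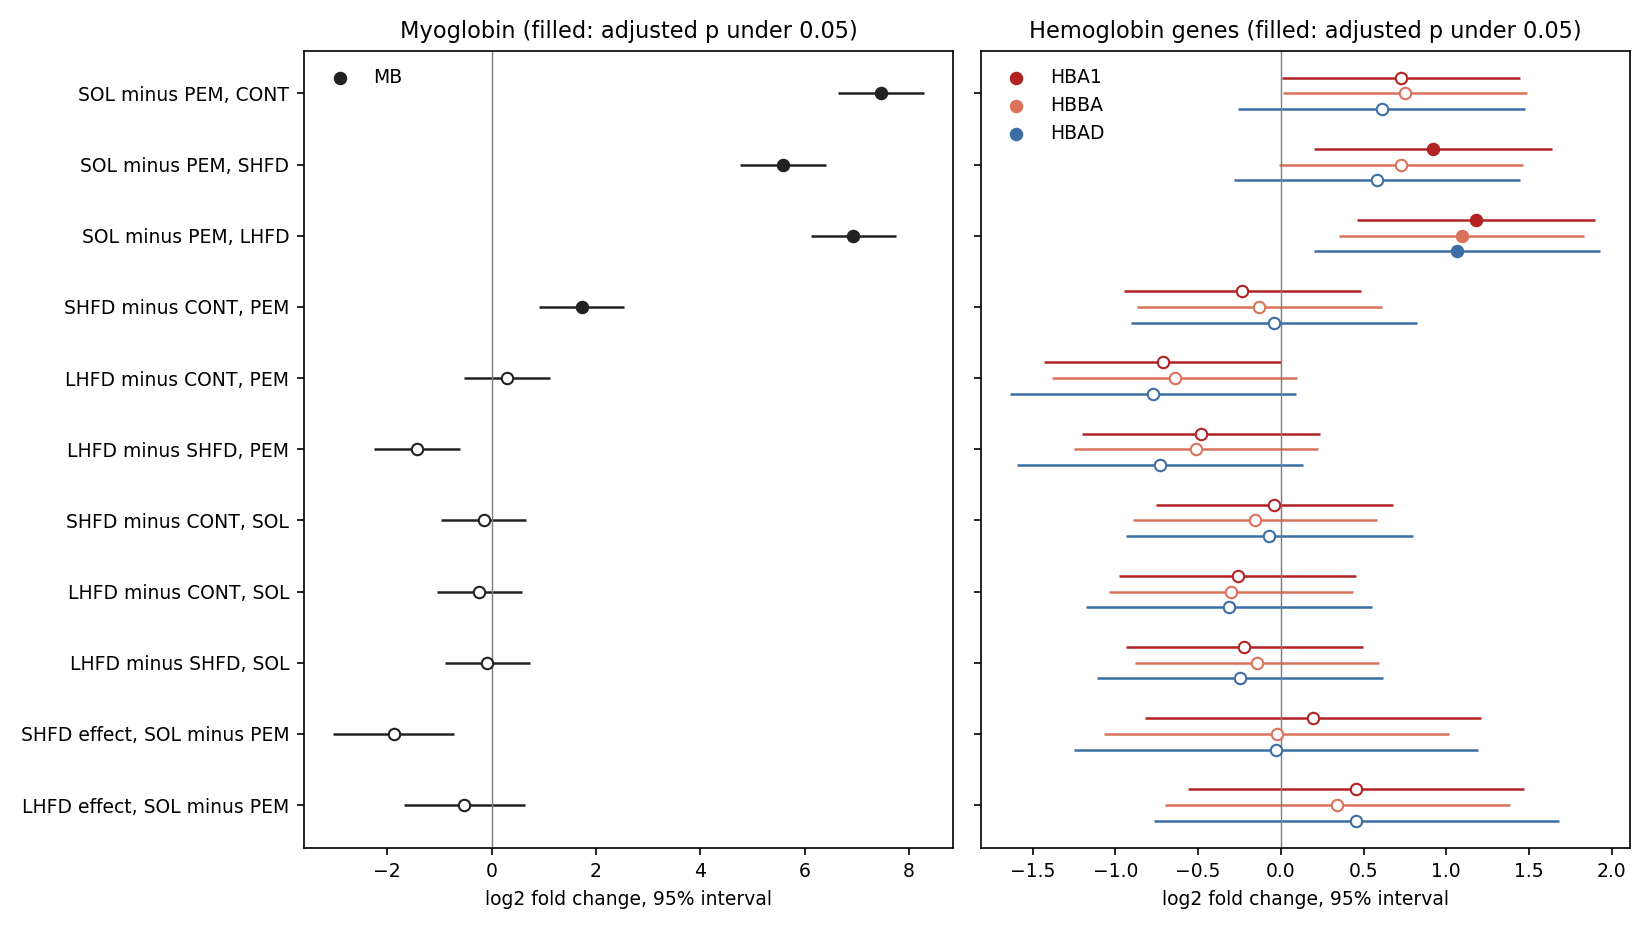
Log2 fold change (horizontal axes, different in the panels) of MB, left, and of the hemoglobin genes, right, in the 11 comparisons, with bars for the 95% interval. Filled points have an adjusted p under 0.05: MB is filled in the 3 comparisons of the muscles and in SHFD against CONT in PEM, and the hemoglobin genes are filled at 0.92 for HBA1 under SHFD and at 1.07 to 1.18 for all 3 genes under LHFD.

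The hemoglobin genes moved with each other from library to library. Over the 12 PEM libraries, HBA1 and HBBA had a Pearson r of 0.985 and a Spearman rho of 0.986, and over the 12 SOL libraries 0.978 and 0.979 (permutation p = 1e-05 each, the smallest that 100000 resamples can give; 2e-05 after adjustment over 8 relations). HBA1 and HBAD gave an r of 0.923 in PEM and 0.981 in SOL, with rho at 0.902 and 0.979 and adjusted permutation p-values of 5.33e-05 and 2e-05. HBBA and HBAD gave 0.958 and 0.992, with rho at 0.944 and 0.979 and adjusted permutation p-values of 3.2e-05 and 2e-05. Without the 2 libraries farthest from the median of the first gene, these 6 coefficients lay between 0.846 and 0.977, and the coefficients of deviations from the diet means lay between 0.907 and 0.996. For MB and HBA1 the r was 0.315 in PEM and 0.069 in SOL, with rho at 0.476 and 0.077 and adjusted permutation p-values of 0.364 and 0.834, and without the 2 farthest libraries it was 0.314 and 0.147. For deviations from the diet means it was 0.518 in PEM and −0.04 in SOL.

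**Figure D4:**
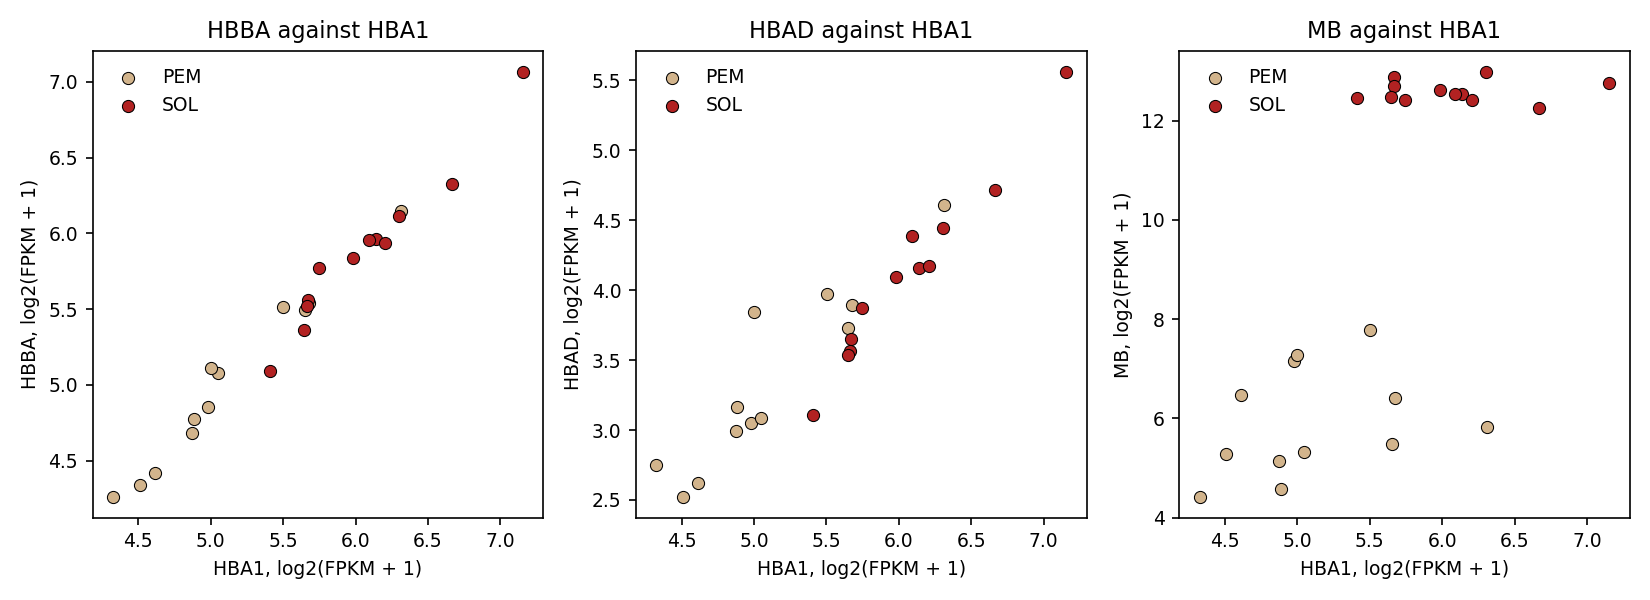
HBBA, HBAD and MB (vertical axes) against HBA1 (horizontal axes), all as log2(FPKM + 1), with a point for each of the 12 PEM (tan) and 12 SOL (red) libraries. HBBA and HBAD rise along narrow bands shared by both muscles (r of 0.923 to 0.985 with HBA1), while MB forms a separate cloud in each muscle.

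Ratios inside a library do not depend on how libraries are scaled. The ratio of HBAD to HBA1 averaged 0.263 ± 0.0512 over the 24 libraries, with a range of 0.184 to 0.432, so HBAD was the lower alpha chain in every library. SHFD_PEM alone ran from 0.220 to 0.432. None of 9 comparisons between muscles or diets was past the threshold, the smallest exact permutation p being 0.229. Tests of 4 against 4 libraries could hardly pass after adjustment over 9 comparisons. For the ratio of MB to summed hemoglobin, 4 comparisons at the smallest possible p still had an adjusted p of 0.0643. The lack of calls therefore does not show that the ratio was steady. The ratio of beta to alpha chain RNA, HBBA over the sum of HBA1 and HBAD, averaged 0.720 ± 0.0430 with a range of 0.629 to 0.8294. It did not overlap between groups in 3 of 9 comparisons, being lower in SHFD_SOL than in SHFD_PEM by 0.13 on the log2 scale, lower in SHFD_SOL than in CONT_SOL by 0.11, and higher in LHFD_PEM than in CONT_PEM by 0.10. Each of these reached the smallest exact permutation p that 4 against 4 libraries allow, 0.0286, and an adjusted p of 0.0857.

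The ratio of MB to summed hemoglobin sets the RNA of a fibre gene against that of red cell genes in the same sample. How much of the hemoglobin RNA came with blood was not tested. Its median was 51.5 in CONT_SOL, 44.3 in SHFD_SOL and 45.9 in LHFD_SOL, and all 12 SOL libraries lay between 21.5 and 69.6. In PEM it ran from 0.324 to 0.568 in CONT, from 0.761 to 2.09 in SHFD and from 0.475 to 2.16 in LHFD, with medians of 0.389, 1.88 and 0.683. Hemoglobin RNA thus outweighed MB RNA in all 4 CONT_PEM libraries, whereas in SOL MB led at least 21.5-fold. The log2 ratio differed between the muscles by 6.76 under CONT, 4.78 under SHFD and 5.80 under LHFD, and within PEM it was 1.91 higher in SHFD than in CONT. In these 4 comparisons the groups did not overlap, with an exact permutation p of 0.0286 each and 0.0643 after adjustment over 9 comparisons. With a hemoglobin level as a covariate, each call of MB in the 11 comparisons stayed on its side of the threshold.

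**Figure D5:**
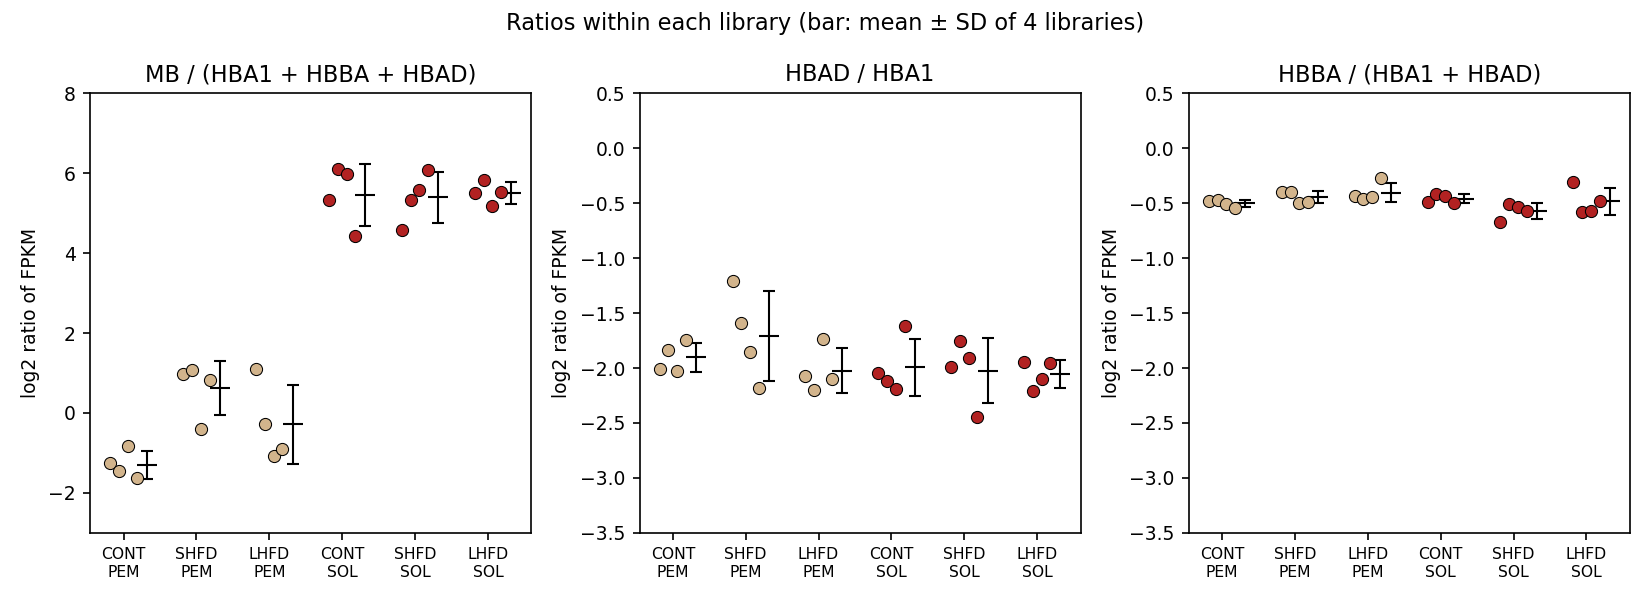
Log2 ratios within each library: MB to summed hemoglobin, HBAD to HBA1, and HBBA to the sum of HBA1 and HBAD, for the 6 groups, with points for libraries and bars for the mean ± SD of 4. The first ratio splits the muscles without overlap and places CONT_PEM lowest. Group means of the second run from −2.05 in LHFD_SOL to −1.71 in SHFD_PEM. Those of the third run from −0.57 in SHFD_SOL to −0.40 in LHFD_PEM. The vertical axis of the first panel differs from those of the others.

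Embryonic and other globins were scarce. HBZ, an embryonic alpha-type gene, was listed at 0 in 22 of 24 libraries and reached 0.0643 FPKM. HBE, the epsilon gene, was at 0 in 20 libraries with a maximum of 0.186 FPKM, and HBBR, the embryonic rho gene, was at 0 in 23 with a maximum of 0.0740 FPKM. HBE1, a further beta-type gene, reached 2.61 FPKM and was at 0 in 6 libraries, and it was not called in any comparison. In RefSeq's order of the chicken GRCg7b assembly, HBZ, HBAD and HBA1 lie next to one another, and so do HBE, HBBA, HBE1 and HBBR, while MB belongs to neither cluster. The adult genes thus held nearly all of the hemoglobin RNA, with HBE1 at 1 FPKM or more in 5 of 24 libraries, although reads shared between such similar genes could have been assigned to any of them.

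CYGB, cytoglobin, a globin of fibroblast-like cells, was measured in every library at 3.40 to 13.4 FPKM. Under SHFD it was higher in SOL than in PEM (9.96 ± 2.97 against 5.57 ± 2.70 FPKM, log2 fold change 0.77, limma adjusted p = 0.0482), and under CONT and LHFD it gave 0.63 and 0.13 (adjusted p = 0.104 and 0.767). The call was lost in 6 of the 8 fits without 1 library. NGB, the globin of neurons, did not exceed 0.114 FPKM.

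Other genes listed for the red cell lineage spanned a wide range. Of 24 listed genes, 14 were in the table and 9 were tested, and EPB42, RHAG, GFI1B, NFE2 and XK never reached 0.5 FPKM. TMCC2, CA2, a carbonic anhydrase, and TFRC led the list, at 37.6 ± 6.55, 34.2 ± 11.3 and 16.8 ± 2.68 FPKM in CONT_SOL, and the list summed to 64 to 146.2 FPKM in a library. SLC4A1, the band 3 anion exchanger of the red cell membrane, stood between 0.812 and 2.03 FPKM. Its log2 fold change in SOL against PEM under CONT was 0.28 (limma adjusted p = 0.109). Over the 12 SOL libraries SLC4A1 had an r of 0.617 with HBA1 (rho 0.706, permutation p = 0.0316, 0.126 after adjustment over 4 relations added after seeing the data; 0.560 without the 2 farthest libraries), and over the 12 PEM libraries −0.037 (rho −0.042, adjusted permutation p = 0.909; −0.364 without the 2 farthest).

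Of the 9 tested red cell genes, 4 were higher and 1 lower in SOL under CONT, with a median log2 fold change of 0.29 against 0.12 for all genes, of which 30.7% were called higher and 20% lower. TFRC, the transferrin receptor that takes up iron, stood at 4.92 ± 2.21 FPKM in CONT_PEM (log2 fold change 1.66). SLC25A37, which carries iron into mitochondria, gave 0.76, TAL1, a transcription factor of blood and vessel cells, 0.57 (not called after quantile normalization, adjusted p = 0.130), and RHCE, of the Rh protein family, −1.09. TFRC and SLC25A37 are also active outside the red cell lineage, and TAL1 stands in the endothelial list too.

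Markers of vessels were higher in SOL as well. Of 15 tested endothelial genes, 14 were higher and 0 lower in SOL under CONT, beside 30.7% and 20% of all genes. Their median log2 fold change was 1.04 (0.90 after quantile normalization, with 13 higher). TIE1 and KDR, receptors of vessel-lining cells, gave 1.53 and 1.54, EGFL7 1.36 and FLT1 1.13. The summed level of the list lay between 55.7 and 106 FPKM in the PEM libraries and between 156 and 208 FPKM in the SOL libraries, without overlap, and its part in the hemoglobin difference was not tested. In PEM, limma called 0 of the 15 in SHFD against CONT, with 1 at an unadjusted p under 0.05, and 0 in LHFD against CONT, with none under it. Of all genes tested, 0.539% were called higher and 0.53% lower in the former, and 6.94% in either direction in the latter.

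Of 4 tested thrombocyte genes, 1 was higher in SOL under CONT (F13A1, 1.14). Among all genes tested, 30.7% were called higher in that comparison and 20% lower. Of 13 leukocyte genes, 1 was higher (CD74, 1.06) and 2 were lower (CD4, −0.76, and LYZ, −2.18), and without CONT_PEM 2 and LHFD_PEM 1 the counts were 10 and 2. The fit without these libraries called 6053 genes in all, 3941 of them higher. F13A1 and CD74 were not called after quantile normalization (adjusted p = 0.0673 and 0.0773). The part of leukocyte RNA in the globin values was not tested. In LHFD against CONT in PEM, 6.94% of all genes tested were called. THBS1, a secreted protein stored in thrombocytes, was higher there (1.47, limma adjusted p = 0.0224) and CD4, the helper T cell co-receptor, lower (−0.83, adjusted p = 0.00522). The call of THBS1 was lost in 4 of 8 fits without 1 library. Without CONT_PEM 2 and LHFD_PEM 1, the genes HBA1, HBBA and HBAD kept the side of the threshold they had in each comparison of the muscles.

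Heme is the iron-bearing group that both myoglobin and hemoglobin hold. Of 16 tested genes of its synthesis and breakdown, 9 were called higher and 2 lower in SOL under CONT, beside 30.7% and 20% of all genes. Their median log2 fold change was 0.56. ALAS1, the first and rate-limiting enzyme of the pathway outside the red cell lineage, stood at 68.3 ± 16.8 FPKM in SOL and 14.1 ± 0.734 in PEM (log2 fold change 2.17, limma adjusted p = 3.96e-09). ALAD and UROD, later enzymes of the same pathway, gave 0.77 and 0.72. BLVRA, which reduces the heme breakdown product biliverdin, gave 2.996. Scaling to equal nuclear sums moved the counts to 11 and 0.

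Of 11 iron genes 4 were higher and 3 lower, beside 30.7% and 20% of all genes. Beside TFRC, ACO1, whose protein switches between an enzyme and an iron sensor, was higher (1.07). PCBP2, an RNA-binding protein that also delivers iron, and NCOA4, which directs the breakdown of ferritin, were lower (−0.63 and −0.58).

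In PEM the heme list gave 1 call in SHFD against CONT and 1 in LHFD against CONT, where 0.53% and 6.94% of all genes were called lower and in either direction. Both calls were HMOX2, the constitutive heme oxygenase, which fell from 5.07 ± 1.09 FPKM in CONT to 2.78 ± 0.286 in SHFD (log2 fold change −0.67, limma adjusted p = 0.0167) and to 3.24 ± 0.608 in LHFD (−0.51, adjusted p = 0.0244). These comparisons share their control libraries, and the second call was lost after quantile normalization (adjusted p = 0.0959) and in 5 of 8 fits without 1 library. The first call was lost with only the groups compared, a fit in which 0 genes were called. It was also lost in at least 1 fit without 1 library. Of the 11 iron genes limma called 0 in either, with 3 and 1 at an unadjusted p under 0.05.

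Genes known from mammals to act on the myoglobin gene, or on oxidative fibres at large, went both ways between muscles. Of 24 tested, 11 were called higher and 7 lower in SOL under CONT, beside 30.7% and 20% of all genes. Their median was 0.22, against 0.12 for all genes. CAMK2A, a calcium-activated kinase, gave a log2 fold change of 3.78 and ESRRB, an orphan nuclear receptor, 1.93. PPARGC1A, the coactivator PGC-1 alpha that drives mitochondrial growth, stood at 5.97 ± 1.09 FPKM in SOL and 1.11 ± 0.480 in PEM (log2 fold change 1.74). CAMK2D, a related kinase, was lower (−1.10). In SHFD against CONT in PEM, where MB was called, limma called 0 of the 24, with 4 at an unadjusted p under 0.05. Of all genes tested, 0.539% were called higher there and 0.53% lower. In LHFD against CONT in PEM, 6.94% of all genes tested were called. Among the 24, ESRRB was higher (0.77, limma adjusted p = 0.0303) and PPARD, a fatty acid sensing receptor, lower (−0.98, adjusted p = 0.0319). Each of these calls was fragile: that of ESRRB was lost without CONT_PEM 2 and LHFD_PEM 1 (0.0503), that of PPARD after quantile normalization (0.0783), and they were lost in 6 and 5 of 8 fits without 1 library. In SOL, limma called 0.886% of all genes tested in LHFD against SHFD. NFATC1, a calcineurin-controlled factor of slow fibres, and PPARGC1A were higher there (1.44 and 0.81, limma adjusted p = 0.00688 and 0.0481), while MB gave −0.08. The call of PPARGC1A was lost in 6 of 8 fits without 1 library. Of the 3 calls over all lists in this comparison, 2 were lost with only the groups compared and 1 without the filter on low values. At least 1 of the calls of NFATC1 and PPARGC1A was thus lost with only the groups compared.

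Of 15 tested genes of oxygen sensing and the hypoxia response, 6 were higher and 4 lower in SOL under CONT, beside 30.7% and 20% of all genes. PDK1, which holds pyruvate back from mitochondria, and VEGFA, the vessel growth factor, were higher (2.78 and 1.60). EGLN3, an oxygen-sensing prolyl hydroxylase, and PFKFB3, a regulator of glycolysis, were lower (−2.33 and −5.11). In PEM, limma called 0 of the 15 in SHFD against CONT, with 4 at an unadjusted p under 0.05, beside 0.539% of all genes called higher and 0.53% lower. In LHFD against CONT, where 6.94% of all genes tested were called, 1 of the 15 was called. It was BNIP3L (−0.40, limma adjusted p = 0.0474), a receptor for the removal of mitochondria. That call was lost after quantile normalization (0.167), without CONT_PEM 2 and LHFD_PEM 1 (0.0838), and in 7 of 8 fits without 1 library.

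Contractile and oxidative genes gave the fibre setting of the MB difference. Of 15 slow fibre genes 13 were higher and 1 lower in SOL under CONT, with a median log2 fold change of 8.81, above the 7.46 of MB. MYOZ2, a protein of the slow sarcomere, gave 8.98, PLN, the inhibitor of the slow calcium pump, 9.78, ATP2A2, that pump, 6.58, and MYL3, a slow myosin light chain, 9.71. Of 14 fast fibre genes 3 were higher and 5 lower, led by MYH1E, a fast myosin heavy chain, at −5.69. Among all genes tested, 30.7% were called higher in SOL under CONT and 20% lower.

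Of 23 genes for citrate synthase, porins and the nuclear part of the respiratory chain, 20 were higher and 1 lower (16 and 1 after quantile normalization), and the median was 0.80. COX6A1, a part of the respiratory chain, gave 4.17, and CS, citrate synthase, 1.497. Of 17 genes of fatty acid oxidation and binding, 13 were higher and 1 lower, and the median was 1.85. These counts are for SOL against PEM under CONT, where 30.7% of all genes tested were called higher and 20% lower. In SHFD against CONT in PEM, limma called 0 of the slow fibre, fast fibre, respiratory chain and fatty acid genes, with 1, 0, 3 and 0 at an unadjusted p under 0.05. Of all genes tested, 0.539% were called higher there and 0.53% lower. In LHFD against CONT in PEM, 1 was called, beside 6.94% of all genes tested. It was CPT1A (−1.47, limma adjusted p = 0.00152), the enzyme that admits fatty acids to mitochondria, and this call held in all 8 fits without 1 library. Over the 12 PEM libraries MB and the slow fibre level had an r of 0.299 (rho 0.287, adjusted permutation p = 0.693; 0.391 without the 2 farthest), and over the 12 SOL libraries 0.142 (rho 0.238, adjusted permutation p = 0.877; 0.240 without them).

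The genes whose pattern was most like that of MB were sought among the 5212 named genes that averaged 5 FPKM or more, by Pearson r of log2(FPKM + 1) over 24 libraries. Among the 5 closest were ATP5MC1 (0.979), MDH1 (0.976), ASB18 (0.975) and ATP5A1Z (0.975). The libraries fall into 2 clusters for MB, 1 per muscle, and these coefficients include the gap between them. After the group means were taken away, the closest were LAMC1 (0.680), NID1 (0.671), STOML2 (0.659), MGRN1 (0.646) and RPL35 (0.625). They are the highest of 5212 coefficients, and whether unrelated genes would reach such values was not tested. LHFD_PEM 1, whose MB lay far above the rest of its group, enters these coefficients.

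For HBA1 the same search returned the other hemoglobin genes first, HBBA (0.988) and HBAD (0.947), followed by ATP5PF (0.830), ATP5F1D (0.818) and NDUFC2 (0.798). After the group means were taken away, HBBA (0.983) and HBAD (0.943) were again the closest of the 5212 genes, and the next was PODN at 0.696. MB had an r of 0.350 with HBA1 on that measure.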

How the data were processed

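The authors deposited 1 FPKM value per gene and library. The labels' protocols name fastp for trimming, HISAT2 and the GRCg6a genome for mapping and StringTie 1.3.3b for quantification. The submitters' processing notes also name Cufflinks and DESeq2, with no role. FPKM are shares of a library, so abundant genes lower the rest, and depth is unknown: ratios of low values gathered in no whole multiples (at most 2.15% in 1 bin), so no reads were recovered. A further sheet lists 30 library names without values. All 24 libraries with values were used.

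The scale for testing was log2(FPKM + 1), and limma 3.58.1 (R 4.3.3, variance trend) was run over the 10944 genes that reached 1 FPKM in 4 or more libraries, in 1 fit of 6 group means with 18 residual degrees of freedom, and p-values were Benjamini-Hochberg adjusted over all genes in each of 11 comparisons. The p-values measure the spread between these libraries only. Ratios within libraries were compared by two-sided exact permutation tests of 4 against 4, and relations within a muscle by two-sided permutation tests (scipy 1.17.1). The fit was tested on simulated data. Members and 13 gene lists were chosen with earlier results of these data known, and named genes are the members, all listed globins, up to 4 of each list with the smallest p between muscles under CONT, up to 2 in a diet comparison, and the 5 most alike, of which 1 gene is not reported here. ALAS2 was not found under that symbol, so SLC4A1 took its place.

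Same-numbered libraries of the muscles deviated together (r over 0.1) in 4 of 4 pairs under CONT, 3 of 4 under SHFD and 0 of 4 under LHFD, so numbers were taken to pair the CONT libraries only. Each SHFD_PEM library was nevertheless most like the SHFD_SOL library of its own number, so the unblocked SHFD tests may ignore a pairing. Alternatives were quantile normalization, equal sums over nuclear genes, a pseudocount of 0.1, no filter, only the groups compared, replicate blocks, a hemoglobin covariate and leaving out libraries. Libraries of 1 muscle, a slow fibre covariate, the mean over 3 diets, a replicate block in the CONT libraries and the alternatives per listed gene were added after seeing the data.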

Additional observations from a re-analysis of the deposited data

Results flagged for a closer look

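Of 42 groups of 4 values (the 4 genes and 3 ratios in 6 groups), 4 held a library whose gap to the nearest other was large against the range of its group. These gaps were measured on FPKM and on plain ratios, not on the log2 scale used for testing. Chance alone gives this in about 1 group in 20 where groups are independent and their values normally distributed. The 42 groups share genes and libraries, and normality was not tested, so no expected number of flags is given. Whether the 4 flags hold on the log2 scale was not tested.

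MB in LHFD_PEM 1 was 142.1 FPKM, and the other 3 libraries of that group lay between 20.42 and 38.84. HBAD in CONT_SOL 4 was 46.14 FPKM, against 10.86 to 16.82 in the others, and HBA1 and HBBA were highest in the same library. HBAD in SHFD_PEM 4 was 5.166 FPKM, against 13.37 to 14.69. The ratio of HBBA to the sum of HBA1 and HBAD was 0.8294 in LHFD_PEM 4, against 0.7268 to 0.7387. Whether these libraries differed in the blood or the fibres they held was not tested.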

How the results depend on the processing

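The 3 calls of MB between the muscles held under every alternative run. The pseudocount of 0.1, the pseudocount of 1 in the ratios and the hemoglobin covariate changed no direction and no call of a member. Where a value changed sign or side of the threshold, the cause was not tested unless a smaller set of genes or libraries is named.

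Quantile normalization gave 0.94 for HBAD in SOL against PEM under LHFD (limma adjusted p = 0.0851), 0.045 for HBAD in SHFD against CONT in SOL, and 0.034 for HBBA and 0.048 for HBAD in the difference of the SHFD effect between muscles. Equal nuclear sums gave 0.89 and 0.91 for HBA1 and HBBA between muscles under CONT, now called. Testing more genes, without the filter, ended the calls of HBA1 under SHFD (0.92), HBAD under LHFD (1.07) and MB in SHFD against CONT in PEM (1.72). The last was also lost, at 1.72, with only the groups compared and with libraries of 1 muscle only. With the slow fibre covariate, also fitted to the PEM libraries alone, it was lost at 1.55, and MB in LHFD against CONT was −0.036. Without CONT_PEM 2 and LHFD_PEM 1, MB in PEM gave −0.47 for LHFD against CONT and −1.97 for LHFD against SHFD (adjusted p = 0.0044), the difference of its LHFD effect was 0.24, and that of the SHFD effect was 0.14 for HBBA and 0.12 for HBAD.

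Same-numbered libraries of the muscles could come from the same bird. The correlation of their deviations ranged from −0.119 to 0.362. By the rule of r over 0.1 in each pair, pairing was not established under SHFD and LHFD. In all, 8 of 12 PEM libraries were most like the SOL library of their own number. They were all the CONT_PEM and all the SHFD_PEM libraries, and no LHFD_PEM library. SHFD (r of 0.0749 to 0.362) thus resembled CONT (0.163 to 0.295) on this measure. With the replicate number as a block over all groups, HBAD under LHFD gave 1.07 (adjusted p = 0.0541). In the blocked fit of the CONT libraries, HBA1, HBBA and HBAD gave 0.73, 0.75 and 0.61, now called. With a block for each diet and number, hemoglobin was called in all 3 diets: HBA1, HBBA and HBAD gave 0.73, 0.75 and 0.61 under CONT (adjusted p = 0.00713, 0.00175 and 0.00166), and HBBA and HBAD gave 0.72 and 0.58 under SHFD (0.00224 and 0.00234). Under CONT, SHFD and LHFD that fit called 3374, 2936 and 3148 genes higher in SOL, beside 3365, 2901 and 3163 of 10944 in the main fit. SOL was higher in 12 of 12 pairs of the same diet and number for each of the 4 genes. The share of all genes for which this held was not counted. For MB in every diet, and for the hemoglobin genes under LHFD, the muscles did not overlap, so any pairing would give this count there. The paired deviations correlated at 0.686, 0.823 and 0.95 for the 3 hemoglobin genes and at −0.328 for MB. No other call of a member changed under these blocks.

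Leaving out 1 library at a time gave these lowest and highest log2 values. Between muscles, HBA1 ran from 0.39 to 1.02 and HBBA from 0.40 to 1.04 under CONT, HBA1 from 0.725 to 1.155 and HBBA from 0.48 to 0.98 under SHFD, and HBBA from 0.97 to 1.24 and HBAD from 0.96 to 1.19 under LHFD. In PEM, SHFD against CONT gave 1.46 to 1.92 for MB, −0.42 to 0.060 for HBA1, −0.33 to 0.16 for HBBA and −0.25 to 0.29 for HBAD. MB gave −0.25 to 0.67 for LHFD against CONT and −1.97 to −1.06 for LHFD against SHFD. In SOL, SHFD against CONT gave −0.22 to 0.29 for HBA1, −0.32 to 0.19 for HBBA and −0.29 to 0.37 for HBAD, and LHFD against CONT gave −0.43 to 0.071, −0.47 to 0.046 and −0.54 to 0.13. LHFD against SHFD gave −0.18 to 0.057 for MB and −0.41 to 0.0057 for HBBA. The difference of the SHFD effect gave −0.10 to 0.53, −0.32 to 0.32 and −0.36 to 0.41 for HBA1, HBBA and HBAD, and that of the LHFD effect −0.90 to 0.012 for MB. The ratio of MB to summed hemoglobin in SOL gave −0.41 to 0.21, −0.29 to 0.27 and −0.16 to 0.35 for SHFD against CONT, LHFD against CONT and LHFD against SHFD, and that of HBAD to HBA1 gave −0.12 to 0.11, −0.13 to 0.065 and −0.17 to 0.062. HBAD to HBA1 between muscles under LHFD gave −0.087 to 0.068. HBBA to HBA1 and HBAD gave −0.084 to 0.0053 for LHFD against CONT in SOL and −0.0036 to 0.060 for LHFD against SHFD in PEM.

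The number of genes called within a muscle also moved with the fit. SHFD against CONT in PEM gave 117 genes, from 0 with only the groups compared to 180 without CONT_PEM 2 and LHFD_PEM 1. LHFD against CONT in PEM gave 760 (69 to 953 over all alternatives), LHFD against SHFD in PEM 22 (9 to 30), and the same 3 comparisons in SOL 61 (3 to 205), 57 (16 to 101) and 97 (35 to 199). The differences of the SHFD and LHFD effects gave 1 (1 to 2) and 0 (0 to 9). Unknown depth leaves the counting error of HBAD and the scarce globins unmeasured.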
